A study of Mus musculus with 152 samples.

Results

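Livers of C57BL/6J mice, an inbred laboratory strain, were compared after 8 weeks on LIDPAD, the study's diet for inducing non-alcoholic fatty liver disease (NAFLD), and after as long on a purified control diet. Feeding began when the mice were 8 weeks old, and the labels name no genetic change and no drug in either group. The comparison took all samples labelled with the week 8 feeding duration, 8 from LIDPAD and 8 from control livers, which are 16 of the 152 samples of the study. Total RNA was extracted with TRIzol, purified on a column and made into libraries by a sequencing company. Sex and hour of collection are not given in the labels. Each run of 4 consecutive sample numbers behaved as parts of 1 library: chi-square per gene was 2.04 to 2.25 inside the runs of LIDPAD samples and 2.10 to 2.18 inside those of control samples, against 4.64 to 4.92 and 8.19 to 8.62 between the runs of a group. Each run was therefore averaged, which left 2 LIDPAD and 2 control libraries. The labels do not say whether these libraries stem from separate animals or how many animals each holds, so p-values measure only the spread between libraries, which may be technical.

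A liver that receives more fat and cholesterol than it can export stores triglyceride in droplets inside hepatocytes, burns fatty acids in mitochondria and peroxisomes under the control of the receptor PPAR-alpha, and makes less cholesterol of its own because sterol excess keeps the transcription factor SREBP2 inactive. When fat storage is prolonged, resident macrophages called Kupffer cells are joined by macrophages that derive from blood monocytes, and stellate cells deposit collagen around hepatocytes. Whole-liver RNA mixes all of these cells. A lower level may stem from fewer cells of a type or from less RNA per cell, and bulk samples cannot tell these apart.

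The recovered whole reads came to 44846707 and 45646065 in the LIDPAD libraries and 48791716 and 45209369 in the control libraries. Levels are in FPM, counts divided by a size factor and given per 1000000, with no correction for gene length, so levels are compared between diets and not between genes. A log2 change is the LIDPAD mean minus the control mean of log2(FPM + 0.5) and understates the change of low genes. Among 13271 genes with at least 1 FPM in 2 or more libraries, limma called 743 at an adjusted p under 0.05, which is 5.6% of genes (3.85% higher and 1.75% lower in LIDPAD livers). Counts of called list members below stand beside these shares. A low gene could pass the filter through 1 diet alone, so low list members were tested more readily where the diets differed. None of the 743 overlapped between diets, whereas among all tested genes both LIDPAD libraries lay above both control libraries in 28.3% and below them in 27.1%. The median change over all genes was -0.01. The levels show the balance of each library, so a change in total RNA per liver is not measured. With every library rescaled to a total of 1000000 FPM, the 511 higher and 232 lower genes became 869 higher and 159 lower, and the median of all genes moved to 0.10. Calls depended on which library was present: 77 genes were called without LIDPAD library 1, 69 without LIDPAD library 2, 1115 without control library 1 and 1629 without control library 2. Of the 743, 47 were called whichever library was left out. The control libraries were the less alike pair, with 191 genes more than 2-fold apart, of which 144 were higher in control library 1. The LIDPAD libraries had 67 such genes. Hepatocyte markers were abundant in every library, with a summed level of 69150 and 64720 FPM in the LIDPAD libraries, against 86950 and 97590 FPM in the control libraries.

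**Figure D1:**
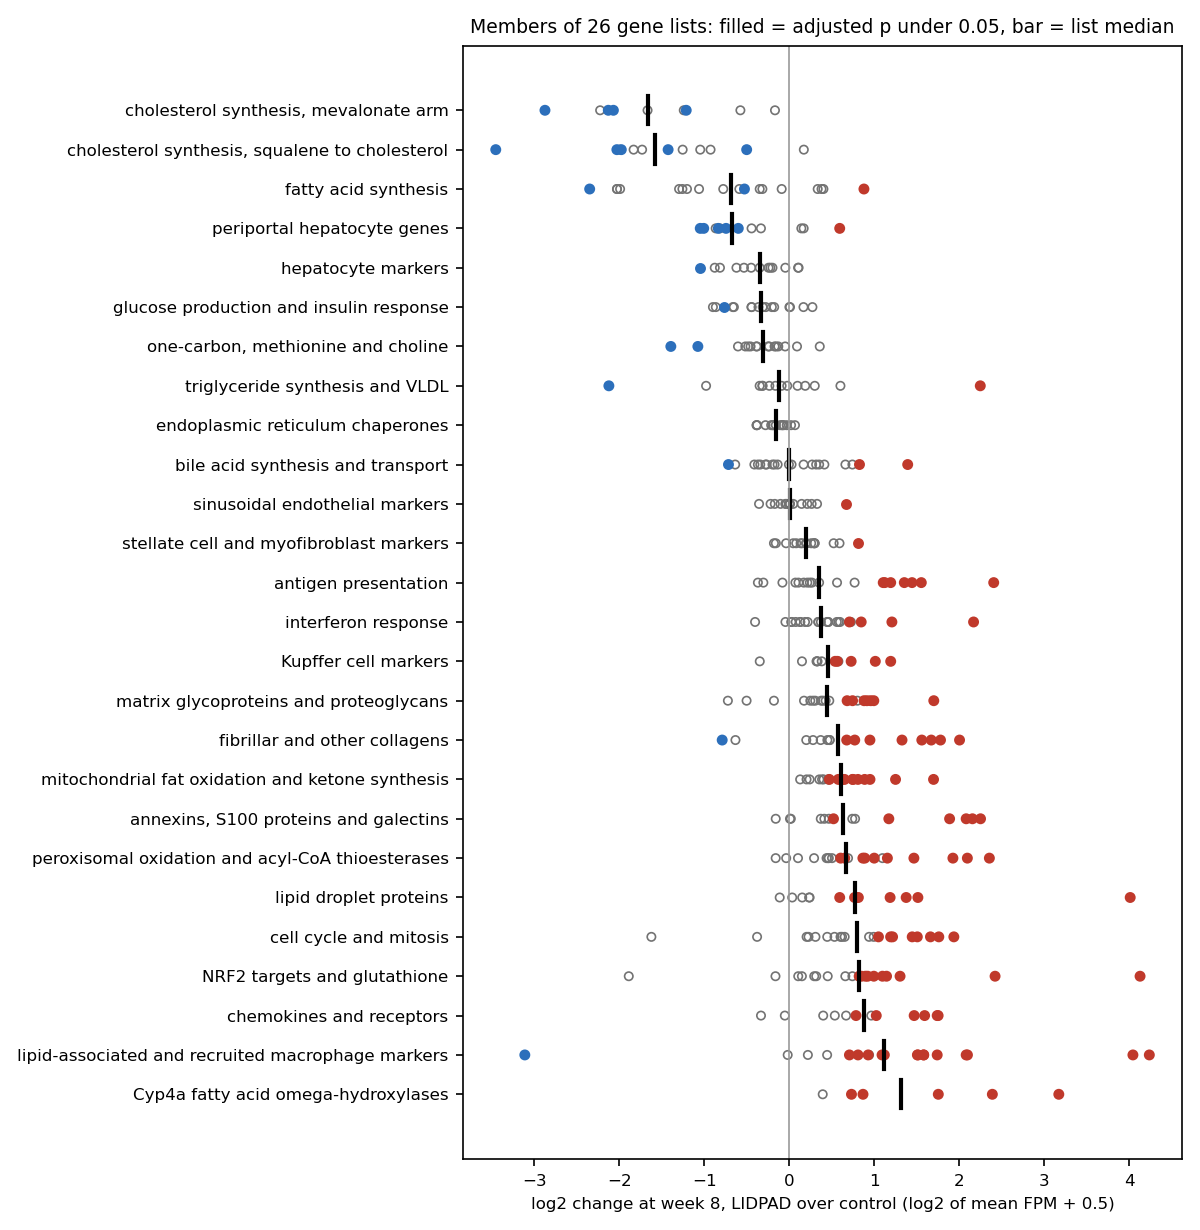
Each row is a list of genes and each point a tested member, placed by its log2 change at week 8, LIDPAD over control. Filled points are genes with an adjusted p under 0.05 by limma, and the black bar is the list's median, which ran from -1.67 in the mevalonate arm of cholesterol synthesis to 1.31 among Cyp4a enzymes.

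Cholesterol synthesis had the lowest list medians of the comparison. All 9 tested genes of the mevalonate arm, which turns acetyl-CoA into farnesyl diphosphate, had both LIDPAD libraries below both control libraries (27.1% of all genes), and 4 of them fell (1.75% of all genes), with a list median of -1.67. Idi1, which isomerises isopentenyl diphosphate (chr13:8885501-8892451), had 12.2 and 11.9 FPM in the LIDPAD libraries, against 162 and 51.8 FPM in the control libraries (log2 change -2.87 ± 0.45, adjusted p = 0.0203). Pmvk, the phosphomevalonate kinase, had 8.27 and 8.27 FPM in LIDPAD against 55.7 and 23.6 FPM in control livers (log2 change -2.07 ± 0.35, adjusted p = 0.0247). In both genes the LIDPAD libraries lay close together while control library 1 was far above control library 2. Hmgcs1, the cytosolic synthase early in this arm, had 66.7 and 86.5 FPM in LIDPAD against 353 and 91.6 FPM in control livers (adjusted p = 0.22), where LIDPAD library 2 and control library 2 nearly met.

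Of the 12 tested genes between squalene and cholesterol, 5 fell and the median was -1.58. Tm7sf2, a sterol C14 reductase, had 19.2 and 19.4 FPM in the LIDPAD libraries, against 65.0 and 42.5 FPM in the control libraries (log2 change -1.42 ± 0.19, adjusted p = 0.0125), and here the diets were apart by more than either pair of libraries. Cyp51, the lanosterol demethylase, had 22.6 and 25.7 FPM in LIDPAD against 162 and 57.1 FPM in control livers (log2 change -1.98 ± 0.42, adjusted p = 0.047). Nsdhl, which removes a carbon from the sterol ring at C4, had 5.90 and 8.75 FPM in LIDPAD against 49.3 and 19.2 FPM in control livers (log2 change -2.03 ± 0.40, adjusted p = 0.0401). The count of lower members was 0 without LIDPAD library 1, 0 without LIDPAD library 2 and 8 without control library 2 in the mevalonate arm, and 0 without LIDPAD library 1, 0 without LIDPAD library 2, 11 without control library 1, 11 without control library 2, 8 in a joint fit of weeks 4, 8 and 12 and 8 with DESeq2 in the squalene list. The medians of the mevalonate arm were -1.83 without LIDPAD library 1, -1.5 without LIDPAD library 2, -0.98 without control library 1 and -2.68 without control library 2. Those of the squalene list were -1.59 without LIDPAD library 1, -1.55 without LIDPAD library 2, -0.95 without control library 1 and -2.24 without control library 2. In both lists the direction held while the size moved with whichever control library was left out.

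Promoters of sterol genes carry sites for SREBP and, beside them, CCAAT boxes bound by NF-Y, a factor that many inducible and cell cycle genes also need. In the RefSeq promoter table (GRCm38.p6), 16 of the 21 genes of the cholesterol lists had an entry. The letters CCAAT, on either strand (read as ATTGG on the other), occurred in the 250 bases before the start site of 14 of these 16, against 34.5% of all 27025 genes in the table. The sterol-element letters TCACNCCAC, on either strand, occurred in 1 of the 16, and in 1.04% of all genes. A match describes the letters in this window and shows no binding. The stretches before Idi1 (chr13:8885356-8885605, plus strand) and Hmgcs1 (chr13:119690101-119690350, plus strand) are printed because Idi1 had the larger change of the pair and Hmgcs1 held both motifs. Capitals mark the CCAAT letters on either strand and, in Hmgcs1, also TCACNCCAC. Idi1 held 2 CCAAT boxes and Hmgcs1 held 3. Start sites are those of RefSeq, and that of Idi1 lies inside the gene span given above, which is from another annotation. Part of the Idi1 stretch, with both of its boxes, therefore falls within that span.
Idi1: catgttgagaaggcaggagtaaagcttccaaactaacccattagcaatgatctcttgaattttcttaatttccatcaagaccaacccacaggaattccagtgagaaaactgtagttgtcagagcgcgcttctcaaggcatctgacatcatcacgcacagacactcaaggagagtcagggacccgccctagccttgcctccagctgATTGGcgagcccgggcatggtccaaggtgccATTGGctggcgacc
Hmgcs1: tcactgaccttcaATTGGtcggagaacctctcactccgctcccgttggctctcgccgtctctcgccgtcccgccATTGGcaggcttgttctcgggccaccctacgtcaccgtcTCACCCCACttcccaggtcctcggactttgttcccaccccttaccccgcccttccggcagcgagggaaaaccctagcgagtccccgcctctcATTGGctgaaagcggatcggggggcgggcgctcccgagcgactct

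The regulators of this route moved in different directions. Scap, which escorts SREBP out of the endoplasmic reticulum, had 38.2 and 39.3 FPM in the LIDPAD libraries, against 112 and 74.1 FPM in the control libraries (log2 change -1.22 ± 0.18, adjusted p = 0.0178). Srebf2, which encodes SREBP2, had 13.2 and 14.2 FPM in LIDPAD against 32.4 and 23.5 FPM in control livers (log2 change -0.98 ± 0.16, adjusted p = 0.0238). Srebf1, which encodes the SREBP1 forms that drive fatty acid synthesis, rose, with 364 and 386 FPM in LIDPAD against 176 and 236 FPM in control livers (log2 change 0.88 ± 0.16, adjusted p = 0.0284). Sterol export went the other way from synthesis: Abcg5 and Abcg8 form the transporter that moves cholesterol into bile, and both rose. Abcg5 had 159.7 and 129.7 FPM in LIDPAD against 35.5 and 49.2 FPM in control livers (log2 change 1.77 ± 0.18, adjusted p = 0.00532), and Abcg8 had 149 and 131 FPM in LIDPAD against 52.5 and 64.1 FPM in control livers (log2 change 1.26 ± 0.13, adjusted p = 0.00614). Abcg1, another target of the oxysterol receptor LXR, also rose (log2 change 1.25 ± 0.12, adjusted p = 0.00491), while Abca1, which loads cholesterol onto high-density lipoprotein, did not pass (log2 change 0.12 ± 0.13, adjusted p = 0.616). The list of sterol export genes and LXR targets had 8 tested members, of which 3 rose, with a median of 0.27. Fewer were called without LIDPAD library 1 or LIDPAD library 2, and more without control library 1. The median was 0.25 without LIDPAD library 1 and 0.30 without LIDPAD library 2. It was 0.80 without control library 1 and 0.02 without control library 2. Abcg5 was called whichever library was left out. Regulators called lower numbered 3 with all libraries and 0 without LIDPAD library 1, 0 without LIDPAD library 2, 6 without control library 2 and 5 with DESeq2.

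Fatty acid synthesis genes depended on which control library they were set against. The 18 tested members had a median of -0.68, with 1 higher and 2 lower. Acss2, which makes acetyl-CoA from acetate, fell, with 54.1 and 59.3 FPM in the LIDPAD libraries, against 519.8 and 162 FPM in the control libraries (log2 change -2.35 ± 0.46, adjusted p = 0.0396). Mlxipl, which encodes the sugar-sensing factor ChREBP, fell with little spread, at 103 and 98.5 FPM in LIDPAD against 145 and 145 FPM in control livers (log2 change -0.53 ± 0.10, adjusted p = 0.0311), a call that was lost after rescaling to 1000000 FPM. Fasn, the fatty acid synthase, had 915 and 809.9 FPM in the LIDPAD libraries, against 3880 and 1151 FPM in the control libraries, so the control libraries were further apart than control library 2 was from LIDPAD, and its change of -1.29 ± 0.50 did not pass (adjusted p = 0.174). The same order was seen for Acly, which makes cytosolic acetyl-CoA from citrate, with 228 and 216 FPM in LIDPAD against 1833 and 445 FPM in control livers (adjusted p = 0.0885). Elovl6, a fatty acid elongase, had 132 and 89.5 FPM in LIDPAD against 609 and 111 FPM in control livers, which overlapped. Pnpla3, a triglyceride lipase whose human form carries a known risk variant for fatty liver, had 2.07 and 2.49 FPM in LIDPAD against 34.9 and 3.10 FPM in control livers and no call. Scd1, the stearoyl-CoA desaturase, had LIDPAD values between the control values, at 21790 and 19130 FPM in LIDPAD against 27550 and 9497 FPM in control livers. Lower members numbered 0 without LIDPAD library 1, 0 without LIDPAD library 2, 4 without control library 1, 13 without control library 2, 1 after rescaling to 1000000 FPM and 4 with DESeq2, with medians of -0.86 without LIDPAD library 1, -0.51 without LIDPAD library 2, -0.14 without control library 1 and -1.16 without control library 2.

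**Figure D2:**
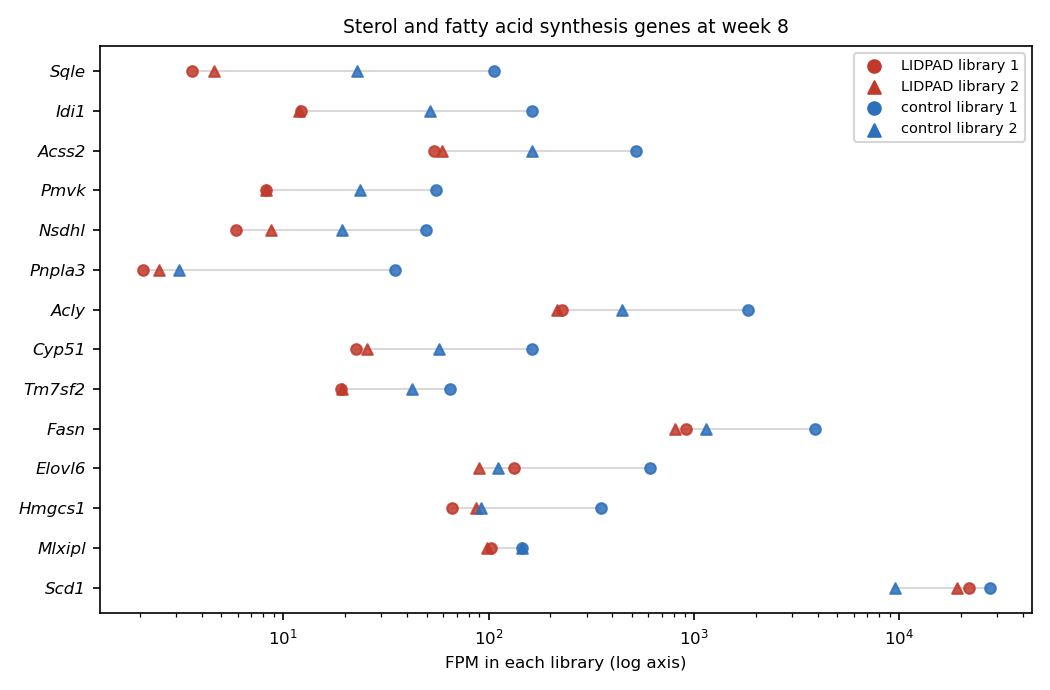
FPM in each library (log axis) of the genes of cholesterol and fatty acid synthesis named in the text, ordered by log2 change at week 8. LIDPAD libraries are red and control libraries blue, library 1 a circle and library 2 a triangle. Control library 1 was the highest for most genes, such as Sqle with 3.60 and 4.59 FPM in LIDPAD libraries 1 and 2 and 107 and 22.8 FPM in control libraries 1 and 2.

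Genes of triglyceride storage were higher. Of 13 tested lipid droplet proteins, 8 rose (3.85% of all genes) and none fell, with a median of 0.77. Cidec, which fuses droplets into larger ones (chr6:113424634-113435760), had 23.0 and 26.2 FPM in the LIDPAD libraries, against 0.822 and 1.31 FPM in the control libraries, which is 4.01 ± 0.19 on the log2 scale (adjusted p = 0.000619). Its LIDPAD libraries were alike and lay far above both control libraries. Plin4, a perilipin that coats droplets, had 44.0 and 53.0 FPM in LIDPAD against 20.3 and 16.5 FPM in control livers (log2 change 1.38 ± 0.14, adjusted p = 0.00614). Plin2, the main coat protein of hepatocyte droplets, had 341 and 409.6 FPM in LIDPAD against 229.6 and 202 FPM in control livers (log2 change 0.79 ± 0.13, adjusted p = 0.0257). Fitm1 and Fitm2, which partition fat into droplets, rose by 1.51 and 0.81. G0s2, an inhibitor of the lipase that opens droplets, had 91.3 and 107 FPM in LIDPAD against 41.6 and 44.7 FPM in control livers (log2 change 1.19 ± 0.11, adjusted p = 0.00509). That lipase, Pnpla2, had 11.6 and 11.6 FPM in LIDPAD against 11.6 and 11.3 FPM in control livers and a change of 0.02 ± 0.11. Higher droplet genes numbered 3 without LIDPAD library 1 and 1 without LIDPAD library 2. Cidec was called whichever library was left out.

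Fatty acid uptake had one of the clearest single-gene differences of the comparison. Fabp2, a fatty acid binding protein best known from intestine (chr3:122895072-122899506), had 124 and 128 FPM in the LIDPAD libraries, against 29.2 and 28.6 FPM in the control libraries (log2 change 2.10 ± 0.09, adjusted p = 0.000619), and each pair of libraries was nearly identical. Cd36, a fatty acid translocase of the cell surface, had 154 and 159 FPM in LIDPAD against 40.9 and 25.2 FPM in control livers (log2 change 2.27 ± 0.21, adjusted p = 0.0048). Lpl, which releases fatty acids from lipoproteins, had 36.1 and 43.4 FPM in LIDPAD against 13.0 and 12.8 FPM in control livers (log2 change 1.58 ± 0.12, adjusted p = 0.00276). Mgll, the monoglyceride lipase, had 134 and 132 FPM in LIDPAD against 53.4 and 62.5 FPM in control livers (log2 change 1.20 ± 0.11, adjusted p = 0.0048). They were the 2 called of 14 tested lipases and their regulators, where higher members numbered 1 without LIDPAD library 1, 1 without LIDPAD library 2, 4 without control library 1 and 1 in a joint fit of weeks 4, 8 and 12, and lower ones 1 without control library 1 and 2 without control library 2. Lpl was called whichever library was left out, and Mgll was not called without LIDPAD library 1 or LIDPAD library 2. Pparg, the nuclear receptor that drives fat storage genes, had 11.1 and 13.3 FPM in LIDPAD against 3.60 and 2.98 FPM in control livers (log2 change 1.74 ± 0.16, adjusted p = 0.0048), with no overlap between diets. Fabp5, another binding protein, fell to 6.12 and 9.34 FPM in LIDPAD livers, against 138 and 34.5 FPM in control livers (log2 change -3.11 ± 0.57, adjusted p = 0.0319), and its control libraries differed several-fold. Fabp1, the abundant liver form, had 1977 and 2025 FPM in LIDPAD against 1044 and 1467 FPM in control livers and did not pass (adjusted p = 0.099). Across the 15 tested uptake and binding genes, 3 rose and 1 fell. The higher ones numbered 6 without control library 2 and 6 after rescaling to 1000000 FPM, the lower ones 0 without LIDPAD library 1, 0 without LIDPAD library 2, 4 without control library 2 and 2 with DESeq2, and Fabp5 was not called without LIDPAD library 1 or LIDPAD library 2. Fabp2 and Cd36 were called whichever library was left out.

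Among 14 tested genes of triglyceride synthesis and lipoprotein assembly, 1 rose (3.85% of all genes) and 1 fell (1.75% of all genes). Apoa4, an apolipoprotein of triglyceride-rich particles, had 164 and 219.7 FPM in the LIDPAD libraries, against 56.0 and 27.8 FPM in the control libraries (log2 change 2.25 ± 0.31, adjusted p = 0.0134). Lpin1, a phosphatidate phosphatase that also acts as a coactivator of fat oxidation genes, had 77.4 and 50.2 FPM in the LIDPAD libraries, against 391 and 190.4 FPM in the control libraries (log2 change -2.12 ± 0.34, adjusted p = 0.0217). Apob and Mttp, which build very-low-density lipoprotein, had changes of 0.19 ± 0.34 and -0.09 ± 0.14, and neither passed. Neither the rise of Apoa4 nor the fall of Lpin1 was called without LIDPAD library 1 or LIDPAD library 2.

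Genes of fat oxidation were higher in both the mitochondrial and the peroxisomal list. Of 21 tested genes of mitochondrial oxidation and ketone synthesis, 12 rose (3.85% of all genes) and none fell, with a median of 0.61. The 12 include Fgf21, a hormone described below. Acadm, the medium-chain acyl-CoA dehydrogenase, had 248 and 229.6 FPM in the LIDPAD libraries, against 105 and 144 FPM in the control libraries (log2 change 0.95 ± 0.16, adjusted p = 0.0247). Cpt1a, which admits fatty acids into mitochondria, had 294 and 264 FPM in LIDPAD against 183 and 190 FPM in control livers (log2 change 0.58 ± 0.11, adjusted p = 0.0348). Decr1 and Eci1, which process unsaturated chains, rose by 0.81 and 0.75. Bdh1, which makes the ketone body hydroxybutyrate, rose by 0.89. Pdk4, which spares glucose when fat is burned, had 8.21 and 12.4 FPM in LIDPAD against 16.3 and 5.09 FPM in control livers, with LIDPAD values inside the control range. Higher genes of this list numbered 0 without LIDPAD library 1, 1 without LIDPAD library 2 and 19 without control library 2, although the median stayed close, with 0.63 without LIDPAD library 1, 0.59 without LIDPAD library 2, 0.55 without control library 1 and 0.65 without control library 2.

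Of 20 tested genes of peroxisomal oxidation and acyl-CoA thioesterases, 10 rose (3.85% of all genes) and the median was 0.67. They are called peroxisomal genes below for short, although not every member acts in peroxisomes. Acaa1b, a peroxisomal thiolase, had 842 and 783 FPM in the LIDPAD libraries, against 155 and 232 FPM in the control libraries (log2 change 2.10 ± 0.19, adjusted p = 0.0048). Ehhadh, the bifunctional enzyme of the same pathway, had 291 and 242 FPM in LIDPAD against 136 and 103 FPM in control livers (log2 change 1.16 ± 0.16, adjusted p = 0.0138). Vnn1, a pantetheinase and PPAR-alpha target, had 77.2 and 84.2 FPM in LIDPAD against 18.0 and 13.1 FPM in control livers (log2 change 2.36 ± 0.16, adjusted p = 0.00161). Acot1, a thioesterase, had 28.2 and 20.2 FPM in LIDPAD against 4.50 and 7.69 FPM in control livers (log2 change 1.93 ± 0.26, adjusted p = 0.0125), although the neighbouring Acot genes are near copies and their counts may be shared. Of 6 Cyp4a omega-hydroxylases, which are also near copies of each other and classic PPAR-alpha targets, 5 rose. Cyp4a10 had 245 and 181 FPM in LIDPAD against 41.6 and 38.0 FPM in control livers (log2 change 2.39 ± 0.15, adjusted p = 0.00161) and Cyp4a14 had 315 and 161 FPM in LIDPAD against 24.1 and 25.0 FPM in control livers (log2 change 3.17 ± 0.28, adjusted p = 0.00414), where LIDPAD library 1 was almost double LIDPAD library 2. Ppara itself had 149.8 and 128 FPM in LIDPAD against 80.5 and 96.6 FPM in control livers (log2 change 0.65 ± 0.13, adjusted p = 0.043), and its call was lost without LIDPAD library 1 or LIDPAD library 2. With Pparg it made up the 2 higher genes of 16 tested nuclear receptors, a number that became 1 without LIDPAD library 1, 0 without LIDPAD library 2 and 1 in a joint fit of weeks 4, 8 and 12. Higher peroxisomal genes numbered 2 without LIDPAD library 1 and 2 without LIDPAD library 2, and higher Cyp4a genes 3 without LIDPAD library 1, 3 without LIDPAD library 2 and 3 in a joint fit of weeks 4, 8 and 12. Acaa1b, Vnn1, Cyp4a10 and Cyp4a14 were called in every fit that left out 1 library.

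Drug-metabolising and glutathione enzymes were higher as well. Of 26 tested Cyp2 and Cyp3a genes, 7 rose (3.85% of all genes) and none fell. Cyp3a11, the main steroid and drug hydroxylase of this family in mouse liver, had 2674 and 2113 FPM in the LIDPAD libraries, against 375 and 644 FPM in the control libraries (log2 change 2.27 ± 0.27, adjusted p = 0.00928). Cyp2a5, a coumarin hydroxylase, had 259.7 and 169 FPM in LIDPAD against 72.4 and 103 FPM in control livers (log2 change 1.27 ± 0.24, adjusted p = 0.033). Members of both families are similar enough for reads to be divided among them. Of 19 tested targets of NRF2, the regulator of antioxidant defence, 10 rose and none fell, with a median of 0.82. Gsta1 and Gsta2, near-identical glutathione transferases whose reads cannot be told apart with certainty, rose together. Gsta1 had 34.7 and 27.6 FPM in LIDPAD against 0.823 and 1.95 FPM in control livers (log2 change 4.13 ± 0.29, adjusted p = 0.00176). Gsta2 had 31.8 and 23.0 FPM in LIDPAD against 3.89 and 5.51 FPM in control livers (log2 change 2.42 ± 0.21, adjusted p = 0.00414), and both were called whichever library was left out. Nqo1, a quinone reductase, had 6.62 and 6.38 FPM in LIDPAD against 3.46 and 2.94 FPM in control livers (log2 change 0.92 ± 0.15, adjusted p = 0.0238), and Gclc, which limits glutathione synthesis, had 293 and 379 FPM in LIDPAD against 162 and 210.4 FPM in control livers (log2 change 0.85 ± 0.18, adjusted p = 0.0438). G6pdx, which supplies NADPH, ran against the list without a call, at 4.70 and 5.57 FPM in LIDPAD against 51.8 and 7.75 FPM in control livers. Higher NRF2 targets numbered 2 without LIDPAD library 1, 2 without LIDPAD library 2 and 4 in a joint fit of weeks 4, 8 and 12, and higher Cyp2 and Cyp3a genes 0 without LIDPAD library 1, 1 without LIDPAD library 2, 11 without control library 1, 15 without control library 2, 12 after rescaling to 1000000 FPM and 12 with DESeq2.

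**Figure D3:**
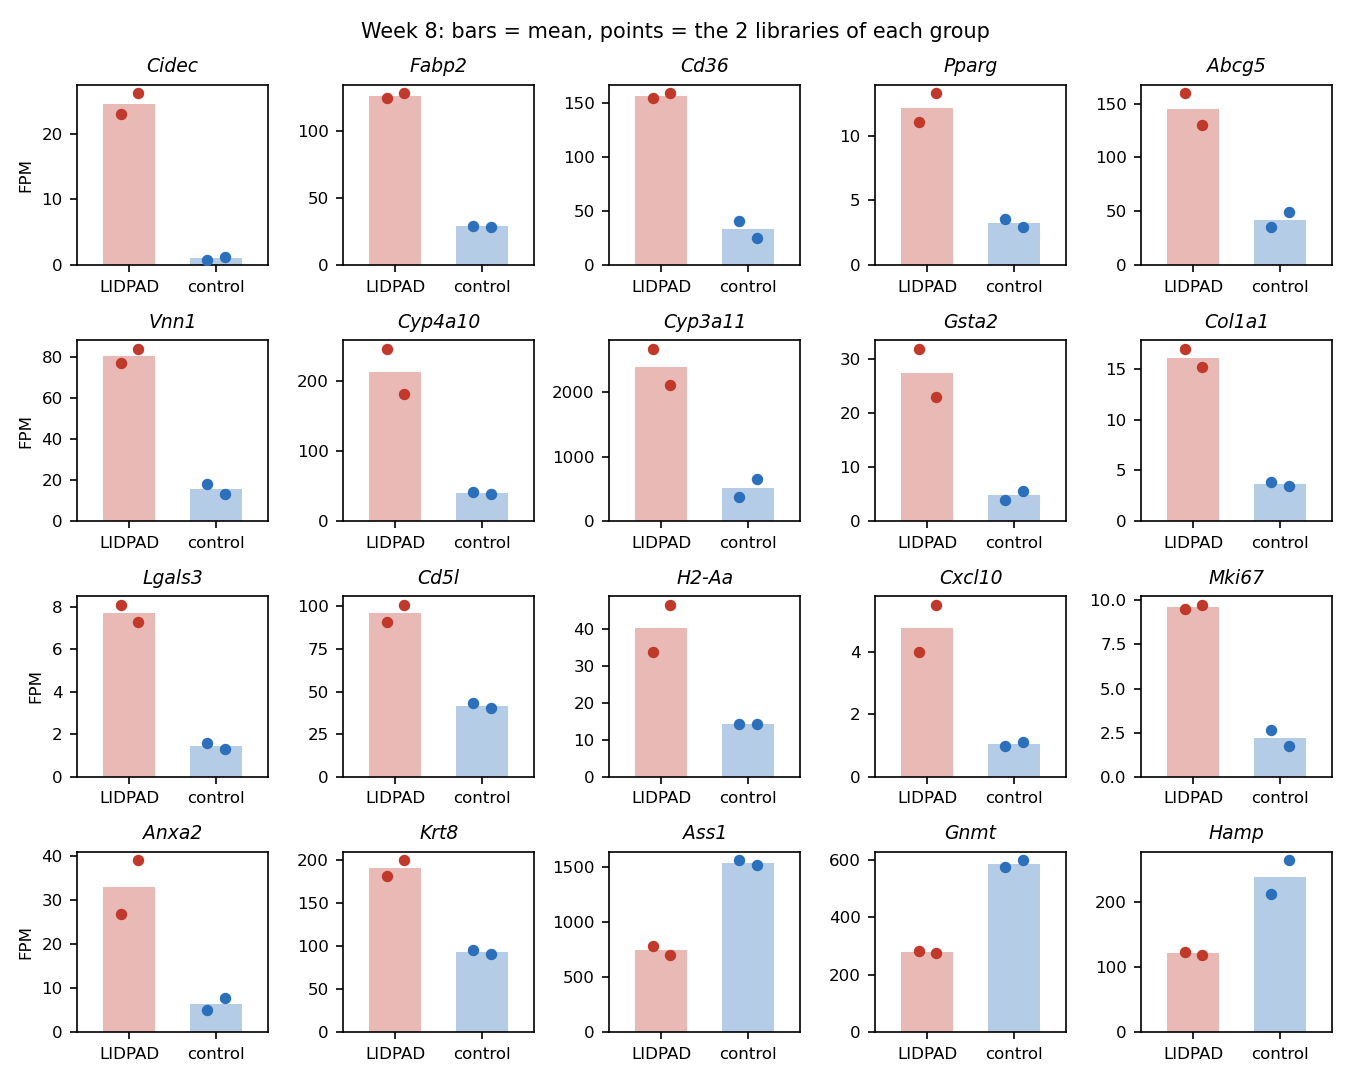
FPM of 20 genes at week 8, with LIDPAD left of control. Bars are means and points the 2 libraries of each group. The diets do not overlap in any of these genes; Fabp2 had 124 and 128 FPM in LIDPAD and 29.2 and 28.6 FPM in control libraries, and Gnmt 281 and 275 FPM in LIDPAD and 575 and 597 FPM in control libraries.

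Hepatocyte functions of the periportal zone were lower. Of 12 tested periportal genes, 5 fell and 1 rose, with a median of -0.67. Among the 11 tested pericentral genes, whose median was 0.10, limma, edgeR and DESeq2 called 0, with 2, 1 and 3 at an unadjusted p under 0.05. Limma called 1 gene lower without control library 1, and 1 higher without control library 2. Ass1, a urea cycle enzyme, had 784 and 704 FPM in the LIDPAD libraries, against 1557 and 1513 FPM in the control libraries (log2 change -1.05 ± 0.14, adjusted p = 0.0136). Arg1, which releases urea, had 438 and 390.3 FPM in LIDPAD against 603 and 650.2 FPM in control livers (log2 change -0.60 ± 0.13, adjusted p = 0.047). Hal and Gls2, which break down histidine and glutamine, fell, with log2 changes of -0.83 ± 0.16 and -0.74 ± 0.11. Cdh1, the E-cadherin of periportal hepatocytes and bile ducts, had 11.8 and 19.0 FPM in LIDPAD against 32.5 and 28.6 FPM in control livers (log2 change -1.0 ± 0.21, adjusted p = 0.047). Hsd17b13, a droplet protein that is also placed in this zone, was the member that rose (log2 change 0.59 ± 0.12, adjusted p = 0.0453). Cps1, the first urea cycle enzyme, had 2814 and 2334 FPM in LIDPAD against 4406 and 4609 FPM in control livers, with no overlap and no call (adjusted p = 0.0756). Lower periportal genes numbered 0 without LIDPAD library 1, 1 without LIDPAD library 2, 3 in a joint fit of weeks 4, 8 and 12 and 3 with edgeR. The calls of Arg1, Cdh1 and Hsd17b13 were not made by edgeR, and that of Arg1 was lost after rescaling. Hepatocyte markers as a whole (13 tested, 1 lower, median -0.35) were also lower in summed level in LIDPAD livers. Lower hepatocyte markers numbered 0 without LIDPAD library 1, 0 without LIDPAD library 2, 5 without control library 1, 3 without control library 2, 2 with edgeR and 6 with DESeq2, with medians of -0.32 without LIDPAD library 1, -0.34 without LIDPAD library 2, -0.51 without control library 1 and -0.20 without control library 2. Their part in the periportal values was not tested.

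Of the 16 tested genes of methionine, choline and one-carbon metabolism, 2 fell (1.75% of all genes) and none rose. Gnmt, the glycine methyltransferase that disposes of surplus methyl groups, had 281 and 275 FPM in the LIDPAD libraries, against 575 and 597 FPM in the control libraries (log2 change -1.07 ± 0.11, adjusted p = 0.00589), with each pair of libraries close. Nnmt, which methylates nicotinamide, had 7.68 and 7.89 FPM in LIDPAD against 26.5 and 17.0 FPM in control livers (log2 change -1.39 ± 0.20, adjusted p = 0.0155). Lower members of this list numbered 0 without LIDPAD library 1, 0 without LIDPAD library 2, 5 without control library 1, 7 without control library 2, 1 in a joint fit of weeks 4, 8 and 12 and 7 with DESeq2. Limma also called 1 member higher when control library 2 was left out. Bile acid genes were mixed. Slc10a1, the transporter that takes bile salts from blood, fell, with 246 and 249.5 FPM in LIDPAD against 398 and 415 FPM in control livers (log2 change -0.71 ± 0.11, adjusted p = 0.0168). Abcc3, which exports them back to blood, rose, with 282 and 302 FPM in LIDPAD against 87.9 and 139.8 FPM in control livers (log2 change 1.40 ± 0.21, adjusted p = 0.0165), and so did Abcb4, which flips phospholipid into bile (log2 change 0.83 ± 0.11, adjusted p = 0.0126). Cyp7a1, which starts the main route to bile acids, had 121 and 74.2 FPM in LIDPAD against 62.6 and 56.8 FPM in control livers and did not pass (adjusted p = 0.123). Of 16 genes of glucose production and insulin response, Pklr, the liver pyruvate kinase, alone was called, with 142 and 163 FPM in LIDPAD against 297 and 225 FPM in control livers (log2 change -0.77 ± 0.16, adjusted p = 0.0421). Neither Gnmt, Nnmt, Slc10a1, Abcc3, Abcb4 nor Pklr was called without LIDPAD library 1 or without LIDPAD library 2, and Pklr was not called after rescaling.

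Hormones made by the liver included both directions. Fgf21, a fasting and stress hormone, had 8.17 and 7.70 FPM in the LIDPAD libraries, against 2.72 and 3.40 FPM in the control libraries (log2 change 1.25 ± 0.16, adjusted p = 0.011). Gdf15, a stress hormone that lowers appetite, had 5.52 and 4.76 FPM in LIDPAD against 1.07 and 1.76 FPM in control livers (log2 change 1.58 ± 0.22, adjusted p = 0.0138). Inhbe, an activin subunit, had 55.2 and 70.0 FPM in LIDPAD against 18.2 and 34.6 FPM in control livers (log2 change 1.29 ± 0.28, adjusted p = 0.0485). Hamp, which encodes hepcidin, the hormone that limits iron uptake, fell, with 124 and 119 FPM in LIDPAD against 212 and 264 FPM in control livers (log2 change -0.96 ± 0.13, adjusted p = 0.0126). Atf3, a stress-induced transcription factor, rose to 3.25 and 4.24 FPM in LIDPAD livers, against 1.42 and 1.17 FPM in control livers (log2 change 1.23 ± 0.20, adjusted p = 0.0223). Of 15 tested targets of ATF4, 3 rose and none fell, with changes from -1.455 to 1.578. Both LIDPAD libraries lay above both control libraries in 10 of the 15 (28.3% of all genes) and below them in 3 (27.1%). Asns and Chac1, which ATF4 also drives, had changes of -0.88 ± 0.33 and 0.79 ± 0.24 without a call. The 15 endoplasmic reticulum chaperones had a median of -0.16 and 0 calls by limma, edgeR and DESeq2, also at an unadjusted p under 0.05, against 5 lower ones in the limma fit without control library 1. Neither Fgf21, Gdf15, Inhbe, Hamp nor Atf3 was called without LIDPAD library 1 or LIDPAD library 2, and Inhbe was not called by edgeR.

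Macrophage genes rose as a broad set. Of 19 tested markers of lipid-associated and recruited macrophages, 14 rose and 1 fell, with a median of 1.12. The summed level of 8733 and 9182 FPM in the LIDPAD libraries, against 5697 and 7664 FPM in the control libraries, was nearly all Apoe, an apolipoprotein that hepatocytes also make, which had 8401 and 8803 FPM in LIDPAD against 5344 and 7447 FPM in control livers and did not pass (adjusted p = 0.407). Lgals3, a galectin of recruited macrophages (chr14:47367751-47386160), had 8.11 and 7.28 FPM in the LIDPAD libraries, against 1.58 and 1.29 FPM in the control libraries (log2 change 2.08 ± 0.17, adjusted p = 0.00308). Itgax, the integrin CD11c, had 5.52 and 4.57 FPM in LIDPAD against 0.781 and 0.799 FPM in control livers (log2 change 2.10 ± 0.18, adjusted p = 0.00417). Ccr2, the receptor by which monocytes enter tissue, had 4.78 and 6.24 FPM in LIDPAD against 1.48 and 1.10 FPM in control livers (log2 change 1.74 ± 0.20, adjusted p = 0.00928), and Cx3cr1, the fractalkine receptor, had 2.08 and 2.23 FPM in LIDPAD against 0.494 and 0.375 FPM in control livers (log2 change 1.51 ± 0.21, adjusted p = 0.0135). Trem2, the lipid receptor that defines these cells, had 1.57 and 1.75 FPM in LIDPAD against 0.186 and 0.258 FPM in control livers (log2 change 1.58 ± 0.22, adjusted p = 0.0138). Spp1, osteopontin, had 20.8 and 35.6 FPM in LIDPAD against 13.8 and 14.1 FPM in control livers and did not pass (adjusted p = 0.0634). Fabp5, described with fatty acid uptake, was the member that fell. Itgax, Cx3cr1 and Trem2 reached 1 FPM in the LIDPAD libraries only. With a filter of 5 FPM, 9 of 14 tested members rose, 1 fell and the median was 0.94. Higher members numbered 8 without LIDPAD library 1, 5 without LIDPAD library 2 and 7 in a joint fit of weeks 4, 8 and 12. Lgals3 and Itgax were called whichever library was left out.

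Of 12 tested markers of resident Kupffer cells, 5 rose and none fell, with 11 having both LIDPAD libraries above both control libraries (28.3% of all genes). Their median was 0.46, with a summed level of 461 and 503 FPM in the LIDPAD libraries, against 332 and 335 FPM in the control libraries. The list also holds Cdh5 and Xcr1, which stand in the endothelial and dendritic cell lists too. Cd5l, a secreted protein of tissue macrophages, had 90.7 and 101 FPM in the LIDPAD libraries, against 43.1 and 40.1 FPM in the control libraries (log2 change 1.20 ± 0.11, adjusted p = 0.00418). Adgre1, the F4/80 antigen of mouse macrophages, had 25.7 and 28.4 FPM in LIDPAD against 13.5 and 12.7 FPM in control livers (log2 change 1.01 ± 0.11, adjusted p = 0.00778). The complement genes C1qa, C1qb and C1qc rose by 0.54, 0.73 and 0.57. The markers that are most restricted to Kupffer cells did not pass: Clec4f had 62.5 and 70.8 FPM in LIDPAD against 56.8 and 48.8 FPM in control livers (log2 change 0.33 ± 0.12, adjusted p = 0.151), and Timd4, which is held by long-lived embryo-derived Kupffer cells, had 4.74 and 4.53 FPM in LIDPAD against 3.89 and 4.37 FPM in control livers (log2 change 0.15 ± 0.15, adjusted p = 0.592). Higher Kupffer markers numbered 1 without LIDPAD library 1, 0 without LIDPAD library 2 and 2 in a joint fit of weeks 4, 8 and 12, and 1 was called lower without control library 2.

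Other white blood cells gave little signal. Of 11 neutrophil markers 1 passed the filter, of 12 B and plasma cell markers 2 and of 19 T and NK cell markers 3. The only called one was Themis, a signalling adaptor of developing T cells, with 10.1 and 10.3 FPM in the LIDPAD libraries, against 0.309 and 0.939 FPM in the control libraries (log2 change 3.31 ± 0.28, adjusted p = 0.00353). Other T cell markers were near 0 or lower: Cd3d, Cd3e and Cd3g were at 0.371 FPM or less in every library, and Cd4 had 0.940 and 0.908 FPM in LIDPAD against 1.24 and 1.05 FPM in control livers. The summed neutrophil level was 3.53 and 4.34 FPM in the LIDPAD libraries, against 2.20 and 2.09 FPM in the control libraries. Themis was called whichever library was left out.

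Chemokines rose beside the macrophage genes. Of 12 tested chemokines and receptors, 6 rose and none fell, with a median of 0.88. Ccl2, given below, reached 1 FPM in the LIDPAD libraries only. With a filter of 5 FPM, 2 of 5 tested members rose and the median was 0.79. Without a filter, 5 of 22 rose and the median was 0.65. Cxcl10, an interferon-induced attractant of T cells, had 4.01 and 5.52 FPM in the LIDPAD libraries, against 0.987 and 1.10 FPM in the control libraries (log2 change 1.75 ± 0.20, adjusted p = 0.00928). Cxcl9, which binds the same receptor, had 11.0 and 15.3 FPM in LIDPAD against 4.90 and 3.87 FPM in control livers (log2 change 1.47 ± 0.19, adjusted p = 0.0123). Ccl2, the ligand of Ccr2, had 1.88 and 2.45 FPM in LIDPAD against 0.619 and 0.188 FPM in control livers (log2 change 1.59 ± 0.29, adjusted p = 0.0312). Ccl6, a macrophage chemokine, rose by 1.02 ± 0.15. Of 23 interferon response genes, 4 rose (3.85% of all genes). Among them Gbp2, a guanylate-binding protein, had 7.80 and 9.06 FPM in LIDPAD against 3.48 and 3.23 FPM in control livers (log2 change 1.21 ± 0.15, adjusted p = 0.0105). Ifit3 and Ifit3b, near copies whose reads may be shared, rose by 0.71 and 0.85. The higher chemokine genes numbered 3 without LIDPAD library 1, 0 without LIDPAD library 2 and 3 in a joint fit of weeks 4, 8 and 12, and the higher interferon genes 0 without LIDPAD library 1, 0 without LIDPAD library 2, 8 after rescaling to 1000000 FPM and 7 with DESeq2. Macrophage markers were higher in the same libraries, and their part in the chemokine values was not tested.

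Antigen presentation genes that rose included class II molecules, which present peptides on macrophages, dendritic cells and B cells. Of 19 tested genes 7 rose and none fell, with a median of 0.35. With a filter of 5 FPM, 4 of 15 tested members rose and the median was 0.24. H2-Aa, a class II alpha chain (chr17:34282744-34287823), had 33.6 and 46.5 FPM in the LIDPAD libraries, against 14.2 and 14.2 FPM in the control libraries (log2 change 1.45 ± 0.16, adjusted p = 0.00764). H2-Eb1, a beta chain, had 20.0 and 26.9 FPM in LIDPAD against 6.97 and 8.18 FPM in control livers (log2 change 1.55 ± 0.17, adjusted p = 0.00721). H2-Ab1, the beta chain that pairs with H2-Aa, had 18.0 and 25.8 FPM in LIDPAD against 7.34 and 8.95 FPM in control livers (log2 change 1.35 ± 0.19, adjusted p = 0.0139). Ciita, the master activator of class II genes, had 4.46 and 4.26 FPM in LIDPAD against 1.52 and 2.02 FPM in control livers (log2 change 1.11 ± 0.18, adjusted p = 0.0233). In the chains LIDPAD library 2 was above LIDPAD library 1, and in all of these genes both were above the control libraries. Ubd, a ubiquitin-like modifier induced by inflammation, had 2.31 and 3.10 FPM in LIDPAD against 0.103 and 0.0943 FPM in control livers (log2 change 2.41 ± 0.23, adjusted p = 0.00491). B cell markers summed to 7.29 and 8.94 FPM in the LIDPAD libraries, against 9.65 and 9.45 FPM in the control libraries, so they were not higher in LIDPAD livers. Of 4 tested dendritic cell markers 1 rose, with a median of 0.08 and a summed level of 77.2 and 81.0 FPM in the LIDPAD libraries, against 57.5 and 61.5 FPM in the control libraries. It was Bst2, tetherin, which interferon also induces, with 61.1 and 65.1 FPM in LIDPAD against 41.9 and 47.1 FPM in control livers (log2 change 0.50 ± 0.11, adjusted p = 0.047), a call lost without LIDPAD library 1 or LIDPAD library 2. Zbtb46 and Clec9a, more restricted to dendritic cells, had changes of -0.13 ± 0.15 and 0.07 ± 0.17. Higher members numbered 1 without LIDPAD library 2, and H2-Aa was called whichever library was left out. The part of the macrophage markers in these values was not tested.

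The class II promoter is a textbook site of NF-Y binding, where the inverted CCAAT sequence is called the Y box. In the 250 bases before the start site, 12 of the 15 antigen presentation genes in the promoter table held CCAAT on either strand, and so did 16 of 22 cell cycle genes, against the 34.5% of all genes. The antigen presentation list holds more than class II genes. Of 5 class II genes 4 had an entry, and 3 of these held CCAAT. Collagen genes had it in 5 of 12 and mitochondrial oxidation genes in 5 of 17. The stretches of H2-Aa (chr17:34287824-34288073, minus strand) and of Top2a (chr11:99024190-99024439, minus strand), a cell cycle gene described below, are printed to show 1 box in the first and 6 in the second, in capitals.
H2-Aa: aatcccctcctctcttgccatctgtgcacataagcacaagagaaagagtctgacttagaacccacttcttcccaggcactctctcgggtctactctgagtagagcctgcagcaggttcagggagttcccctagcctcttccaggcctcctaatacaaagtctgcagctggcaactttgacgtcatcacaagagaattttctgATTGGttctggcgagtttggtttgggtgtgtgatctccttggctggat
Top2a: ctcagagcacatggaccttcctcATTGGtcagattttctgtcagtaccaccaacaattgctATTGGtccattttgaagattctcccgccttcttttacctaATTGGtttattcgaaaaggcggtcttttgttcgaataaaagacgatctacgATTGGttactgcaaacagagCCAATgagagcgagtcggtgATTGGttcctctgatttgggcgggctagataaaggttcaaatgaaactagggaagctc

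Many matrix genes rose beside the macrophage genes, although the summed collagen level was lower in LIDPAD livers. Of 16 tested collagens 8 rose and 1 fell, with a median of 0.58. Their summed level was 893 and 913 FPM in the LIDPAD libraries, against 1110 and 1115 FPM in the control libraries. Col18a1, given below, had the largest part in this sum. Col1a1, the main chain of fibrillar collagen in scars (chr11:94936224-94953042), had 17.0 and 15.2 FPM in the LIDPAD libraries, against 3.80 and 3.47 FPM in the control libraries (log2 change 2.0 ± 0.14, adjusted p = 0.00161). Its partner Col1a2 had 25.6 and 24.5 FPM in LIDPAD against 7.61 and 7.41 FPM in control livers (log2 change 1.67 ± 0.11, adjusted p = 0.00161), and both pairs of libraries were tight. Col5a2 and Col12a1, which shape and decorate fibrils, rose by 1.33 ± 0.16 and 1.56 ± 0.18. Col4a1, a basement membrane chain, had 63.6 and 56.9 FPM in LIDPAD against 51.5 and 41.8 FPM in control livers and no call. Col18a1, which hepatocytes make and which gives rise to endostatin, was the collagen that fell, with 506 and 547 FPM in LIDPAD against 893 and 924 FPM in control livers (log2 change -0.79 ± 0.13, adjusted p = 0.0221). Higher collagens numbered 3 without LIDPAD library 1, 3 without LIDPAD library 2 and 4 in a joint fit of weeks 4, 8 and 12, and Col1a1, Col1a2 and Col3a1 were called whichever library was left out.

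Among 20 tested matrix glycoproteins and proteoglycans, 7 rose and none fell. The list summed to 2329 and 2353 FPM in the LIDPAD libraries, against 3313 and 3207 FPM in the control libraries. Sparc, a collagen-binding protein of the matrix, had 42.1 and 40.3 FPM in the LIDPAD libraries, against 23.4 and 20.9 FPM in the control libraries (log2 change 0.88 ± 0.11, adjusted p = 0.0105). Postn, periostin, had 15.1 and 16.0 FPM in LIDPAD against 8.01 and 8.02 FPM in control livers (log2 change 0.91 ± 0.12, adjusted p = 0.0109), and Tnc, tenascin C, which appears in wounds, had 2.86 and 4.73 FPM in LIDPAD against 1.03 and 0.586 FPM in control livers (log2 change 1.70 ± 0.28, adjusted p = 0.0238). Fn1, fibronectin, most of which hepatocytes secrete into plasma, had 967 and 937 FPM in LIDPAD against 1748 and 1408 FPM in control livers and lay outside the threshold (adjusted p = 0.0557). Of 13 tested matrix crosslinkers, proteases and inhibitors 4 rose and none fell. With a filter of 5 FPM, 2 of 10 tested members rose, and without a filter 4 of 19. Mmp2, a gelatinase, had 3.78 and 3.03 FPM in LIDPAD against 1.29 and 1.5 FPM in control livers (log2 change 1.04 ± 0.19, adjusted p = 0.0325), a call lost without LIDPAD library 1 or LIDPAD library 2. Mmp12, the elastase of macrophages, had 10.7 and 11.8 FPM in LIDPAD against 0.0412 and 0.212 FPM in control livers (log2 change 4.24 ± 0.20, adjusted p = 0.000619) and was called whichever library was left out. Higher members of that list numbered 1 without LIDPAD library 1, 1 without LIDPAD library 2, 0 in a joint fit of weeks 4, 8 and 12 and 8 after rescaling to 1000000 FPM, and lower ones 1 without control library 1 and 1 with DESeq2. Glycoproteins called higher numbered 1 without LIDPAD library 1, 0 without LIDPAD library 2, 2 in a joint fit of weeks 4, 8 and 12 and 11 after rescaling to 1000000 FPM, and those called lower 2 without control library 1, 1 without control library 2, 1 in a joint fit of weeks 4, 8 and 12 and 2 with DESeq2.

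Few stellate cell markers were called. Of 16 tested, 1 rose (3.85% of all genes). It was Vim, the intermediate filament vimentin, which many other cell types also make, with 19.1 and 21.0 FPM in the LIDPAD libraries, against 11.8 and 10.8 FPM in the control libraries (log2 change 0.81 ± 0.12, adjusted p = 0.0157). Acta2, the smooth muscle actin of activated stellate cells, had 2.02 and 2.25 FPM in LIDPAD against 1.67 and 1.62 FPM in control livers (log2 change 0.30 ± 0.18, adjusted p = 0.361). Lrat, which stores vitamin A in quiescent stellate cells, had 27.0 and 30.5 FPM in LIDPAD against 24.1 and 22.3 FPM in control livers (log2 change 0.30 ± 0.11, adjusted p = 0.167), and Des, desmin, had 2.92 and 2.70 FPM in LIDPAD against 2.16 and 2.37 FPM in control livers (log2 change 0.26 ± 0.17, adjusted p = 0.398). The list summed to 404 and 400.1 FPM in the LIDPAD libraries, against 363 and 405 FPM in the control libraries, and its median was 0.20. The 15 sinusoidal endothelial markers had a median of 0.01 and 1 higher call (3.85% of all genes), Lyve1, a hyaluronan receptor (log2 change 0.67 ± 0.14, adjusted p = 0.0421). Neither Vim nor Lyve1 was called without LIDPAD library 1 or LIDPAD library 2.

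Cell cycle genes were higher. Of 20 tested genes 8 rose (3.85% of all genes) and none fell, with a median of 0.80. Changes of single members ran from -1.62 to 1.94. Ccnb1, given below, reached 1 FPM in the LIDPAD libraries only. With a filter of 5 FPM, 2 of 6 tested members rose and the median was 0.63. Without a filter, 7 of 26 rose and the median was 0.80. Top2a, the topoisomerase that untangles replicated DNA (chr11:98992943-99024189), had 4.97 and 5.70 FPM in the LIDPAD libraries, against 1.21 and 1.22 FPM in the control libraries (log2 change 1.76 ± 0.17, adjusted p = 0.00509). Mki67, the proliferation antigen Ki-67, had 9.52 and 9.76 FPM in LIDPAD against 2.63 and 1.73 FPM in control livers (log2 change 1.94 ± 0.19, adjusted p = 0.00532). Ccnb1, cyclin B1, had 1.47 and 1.6 FPM in LIDPAD against 0.247 and 0.187 FPM in control livers (log2 change 1.51 ± 0.22, adjusted p = 0.0155), and Mcm6, a part of the replicative helicase, had 8.38 and 5.84 FPM in LIDPAD against 2.88 and 2.58 FPM in control livers (log2 change 1.22 ± 0.20, adjusted p = 0.0223). Ccnd1, cyclin D1, had 17.4 and 13.2 FPM in LIDPAD against 9.28 and 6.33 FPM in control livers and lay just outside the threshold (adjusted p = 0.0506). In the called genes named here both LIDPAD libraries were above both control libraries. The count of higher members was 1 without LIDPAD library 1, 0 without LIDPAD library 2 and 0 in a joint fit of weeks 4, 8 and 12. Whether cells divided, and of which type, was not tested.

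Of 14 tested annexins, S100 proteins and galectins 6 rose and none fell. Among 20 tested tubulins, actins and thymosins, 1 rose (3.85% of all genes), with a median of 0.29. It was Tmsb4x, an actin-binding thymosin, with a log2 change of 0.86 ± 0.11 (adjusted p = 0.0105). Called members of this list numbered 0 without LIDPAD library 1, 0 without LIDPAD library 2, 3 without control library 1, 2 without control library 2, 4 after rescaling to 1000000 FPM and 4 with DESeq2. Anxa2, a calcium-dependent membrane binding protein, had 26.8 and 39.0 FPM in the LIDPAD libraries, against 5.18 and 7.84 FPM in the control libraries (log2 change 2.25 ± 0.23, adjusted p = 0.00614). Lgals1, a galectin of immune and stromal cells, had 19.3 and 23.1 FPM in LIDPAD against 4.18 and 4.50 FPM in control livers (log2 change 2.16 ± 0.14, adjusted p = 0.00161). Krt8, which forms the keratin filaments of hepatocytes and bile ducts, had 182 and 199.8 FPM in LIDPAD against 95.3 and 91.2 FPM in control livers (log2 change 1.03 ± 0.10, adjusted p = 0.00532). Krt18, its partner, had 125 and 139.9 FPM in LIDPAD against 89.4 and 87.3 FPM in control livers (log2 change 0.58 ± 0.10, adjusted p = 0.029). Both keratins are in the list of bile duct markers, of which 2 of 6 tested rose and none fell, with a median of 0.31 and a summed level of 337 and 386 FPM in the LIDPAD libraries, against 214 and 207 FPM in the control libraries. The other members did not pass: Spp1, also made by duct cells, had a change of 0.94 ± 0.23, and Sox9, a ductal transcription factor, had 2.41 and 3.17 FPM in LIDPAD against 4.36 and 4.20 FPM in control livers and a change of -0.55 ± 0.18. Krt19 and Krt7, which hepatocytes lack, did not reach 1 FPM in any library. Higher annexins, S100 proteins and galectins numbered 3 without LIDPAD library 2, 3 in a joint fit of weeks 4, 8 and 12 and 10 after rescaling to 1000000 FPM, and higher bile duct markers 1 without LIDPAD library 1, 0 without LIDPAD library 2 and 0 in a joint fit of weeks 4, 8 and 12, with 1 lower by DESeq2. Anxa2 and Lgals1 were called whichever library was left out, and neither keratin was called without LIDPAD library 1 or LIDPAD library 2.

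Fat cell markers were checked because visceral fat can be carried along with liver. Cfd, which encodes adipsin, a complement protease abundant in fat cells, had 62.7 and 82.8 FPM in the LIDPAD libraries, against 0.556 and 4.51 FPM in the control libraries (log2 change 4.98 ± 0.63, adjusted p = 0.0106), and control library 2 was several-fold above control library 1. Adiponectin, leptin and perilipin 1 transcripts, which define fat cells, were at 0.123 FPM or less in every library, and Lep was at 0. Cidea, another marker of this list, had 0.286 and 3.03 FPM in LIDPAD against 0.0412 and 0 FPM in control livers. It did not pass the filter. Of the 10 markers 5 were tested, 2 of them rose (Cfd and Pparg), and the list summed to 3202 and 3096 FPM in the LIDPAD libraries, against 2085 and 3378 FPM in the control libraries, mostly from Car3, a carbonic anhydrase that hepatocytes also make. Cfd was not called without LIDPAD library 1 or LIDPAD library 2, and Pparg was not called without LIDPAD library 2.

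Acute phase genes divided. Saa3, the serum amyloid of macrophages and stressed tissue, had 7.68 and 11.2 FPM in the LIDPAD libraries, against 1.01 and 1.59 FPM in the control libraries (log2 change 2.46 ± 0.24, adjusted p = 0.00532). Orm3, an orosomucoid, had 6.74 and 6.56 FPM in LIDPAD against 2.02 and 1.22 FPM in control livers (log2 change 1.78 ± 0.21, adjusted p = 0.01), and Il1rn, the natural antagonist of interleukin 1, had 4.35 and 6.00 FPM in LIDPAD against 1.42 and 0.703 FPM in control livers (log2 change 1.89 ± 0.27, adjusted p = 0.0151). Fgg, a fibrinogen chain, fell, with 1247 and 1467 FPM in LIDPAD against 2597 and 2284 FPM in control livers (log2 change -0.85 ± 0.18, adjusted p = 0.0471), and Fga and Fgb, the other fibrinogen chains, lay just outside the threshold (adjusted p = 0.0502 and 0.0505). Saa1, a serum amyloid that hepatocytes secrete in inflammation, had 32.8 and 40.7 FPM in LIDPAD against 72.7 and 5.98 FPM in control livers, so the control values lay on both sides of LIDPAD. Lcn2, lipocalin 2, had 16.4 and 29.1 FPM in LIDPAD against 13.8 and 2.23 FPM in control livers and no call. Saa3 was called whichever library was left out. Acute phase members called higher numbered 1 without LIDPAD library 1, 1 without LIDPAD library 2, 7 without control library 1 and 1 in a joint fit of weeks 4, 8 and 12, and those called lower 0 without LIDPAD library 1, 0 without LIDPAD library 2, 3 without control library 1, 8 without control library 2, 0 in a joint fit of weeks 4, 8 and 12, 0 after rescaling to 1000000 FPM, 3 with edgeR and 4 with DESeq2.

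Clock and growth hormone genes differed inside a group as well as between groups. Dbp, an output factor of the circadian clock, had 14.0 and 3.98 FPM in the LIDPAD libraries, against 0.287 and 1.41 FPM in the control libraries (log2 change 2.72 ± 0.60, adjusted p = 0.0499), and Nr1d2, a repressor of the clock, had 72.0 and 50.2 FPM in LIDPAD against 21.4 and 31.8 FPM in control livers (log2 change 1.19 ± 0.23, adjusted p = 0.0355). Per3, a clock repressor, had 18.6 and 4.28 FPM in LIDPAD against 2.02 and 2.73 FPM in control livers and no call, with LIDPAD library 1 well above the other libraries. Arntl, which encodes the clock activator BMAL1, had 4.66 and 12.3 FPM in LIDPAD against 20.7 and 14.7 FPM in control livers (log2 change -1.14 ± 0.39, adjusted p = 0.139). Mup1, a major urinary protein under growth hormone control, had 4163 and 10090 FPM in LIDPAD against 8755 and 9934 FPM in control livers, and LIDPAD library 1 was the low one. Mup7 followed it, with 3862 and 9679 FPM in LIDPAD against 9058 and 11010 FPM in control livers. Among the 14 major urinary protein genes, near copies that share reads, limma called 0, with 1 at an unadjusted p under 0.05, and the median was -0.36. That median turned to 0.18 without LIDPAD library 1 and was -0.81 without LIDPAD library 2. Limma without control library 1 and DESeq2 called 1 lower each, and edgeR called 0. Neither Dbp nor Nr1d2 was called without LIDPAD library 1 or LIDPAD library 2, and Dbp was not called without control library 1, by edgeR or by DESeq2. Socs2, a feedback inhibitor of growth hormone signalling, fell, with 5.15 and 8.05 FPM in LIDPAD against 19.1 and 12.4 FPM in control livers (log2 change -1.20 ± 0.26, adjusted p = 0.0479), and Igfbp3, the carrier of IGF1, rose, with 19.4 and 21.4 FPM in LIDPAD against 9.65 and 10.2 FPM in control livers (log2 change 1.0 ± 0.12, adjusted p = 0.00914). In their list of 17 tested genes, 2 rose and 1 fell. Socs2 was not called by edgeR, nor without LIDPAD library 1, LIDPAD library 2 or control library 1, and Igfbp3 was not called without either LIDPAD library. Lower members numbered 0 without LIDPAD library 1, 4 without control library 1, 2 without control library 2, 0 in a joint fit of weeks 4, 8 and 12 and 0 with edgeR, and higher ones 0 without LIDPAD library 1, 0 without LIDPAD library 2 and 1 in a joint fit of weeks 4, 8 and 12. The hour at which each liver was taken was not given, so its part in the clock values was not tested.

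Several of the largest single differences were in genes outside these lists. Osbpl3, a lipid transfer protein of the oxysterol-binding family, had 18.7 and 17.4 FPM in the LIDPAD libraries, against 0.719 and 0.891 FPM in the control libraries (log2 change 3.83 ± 0.15, adjusted p = 0.000619). Wee1, a cell cycle kinase that is also under clock control, had 9.05 and 4.26 FPM in LIDPAD against 0.866 and 0.704 FPM in control livers (log2 change 2.40 ± 0.32, adjusted p = 0.0126), with LIDPAD library 1 above LIDPAD library 2, as for Per3. Adgrf1, an adhesion receptor, had 1.25 and 1.54 FPM in the LIDPAD libraries, against 15.8 and 15.4 FPM in the control libraries (log2 change -3.09 ± 0.15, adjusted p = 0.000619). Avpr1a, the vasopressin receptor of hepatocytes, had 4.70 and 6.45 FPM in LIDPAD against 30.5 and 26.5 FPM in control livers (log2 change -2.27 ± 0.17, adjusted p = 0.00214), and Scara5, a ferritin receptor, had 1.10 and 1.84 FPM in LIDPAD against 10.2 and 8.52 FPM in control livers (log2 change -2.34 ± 0.22, adjusted p = 0.0048). Enho, which encodes the peptide adropin, had 0.653 and 0.517 FPM in LIDPAD against 6.21 and 7.32 FPM in control livers (log2 change -2.74 ± 0.19, adjusted p = 0.00161). Rdh11, a retinal reductase, had 16.3 and 20.4 FPM in LIDPAD against 148 and 51.5 FPM in control livers (log2 change -2.23 ± 0.43, adjusted p = 0.0362), again with control library 1 the highest. Osbpl3, Adgrf1, Avpr1a, Scara5 and Enho were called whichever library was left out, as were 31 of the 123 called genes named by rule. Rdh11 was not called without LIDPAD library 1 or LIDPAD library 2, and Wee1 was not called without LIDPAD library 1.

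The week 8 difference was set beside those after 4 and 12 weeks on the same diets, each with 2 LIDPAD and 2 control libraries and each measured within its own table, since the tables were normalised separately. At week 4, 38 of 13237 genes were called, which is 0.287% (0.121% higher and 0.166% lower). At week 12, 2078 of 13631 were called, which is 15.2% (8.99% higher and 6.25% lower). Of the week 8 calls, 428 of the 511 higher and 144 of the 232 lower genes were called in the same direction at week 12, 2 were called in the opposite direction, and 22 were called in the same direction at week 4. Sterol synthesis was already low at week 4: the squalene list had medians of -1.42, -1.58 and -2.0 at weeks 4, 8 and 12. Peroxisomal genes had medians of 0.80, 0.67 and 0.61. Recruited macrophage markers had -0.54, 1.12 and 1.69, collagens -0.04, 0.58 and 0.91, cell cycle genes -0.46, 0.80 and 0.88, and NRF2 targets -0.16, 0.82 and 0.89. The week 4 medians of these last lists depended on control library 2 of that week, which on the log2(FPM + 0.5) scale was more than 2-fold above control library 1 in 7 of 17 tested macrophage markers, 8 of 15 collagens, 8 of 16 cell cycle genes and 8 of 19 NRF2 targets, while control library 1 was as far above it in none. Without control library 2 of week 4 the medians were -0.0054 for macrophage markers, 0.54 for collagens, 0.17 for cell cycle genes and 0.15 for NRF2 targets. Without control library 1 of week 4 they were -0.86, -0.62, -0.88 and -0.63 in the same order. The squalene and peroxisomal medians kept their direction, at -1.68 and 0.66 without control library 2 and -1.2 and 0.93 without control library 1. The median over all genes was -0.01 at weeks 4 and 8, and 0.00 at week 12. Tested members differed between weeks 4, 8 and 12, with 17, 19 and 19 macrophage markers and 15, 16 and 16 collagens. There were 16, 20 and 20 cell cycle genes and 19, 19 and 20 NRF2 targets.

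Whether a gene's diet difference itself changed between weeks was tested as an interaction in a fit of 12 libraries. For week 8 against week 4, limma called 0 of 12980 genes, with 1978 at an unadjusted p under 0.05 and a smallest adjusted p of 0.0965. EdgeR on whole reads also called 0, with 1773 unadjusted, and DESeq2 called 209, which is 1.61%. Without control library 1 of week 4, limma called 796, without LIDPAD library 1 of week 4 it called 27 and without control library 2 of week 4 it called 1. For week 8 against week 12, limma called 0 of 13121, with 514 unadjusted. The medians of the lists above are therefore descriptions of each week, and no list member is called different between weeks by limma with all libraries. At week 4 Col1a1 had 9.88 and 6.99 FPM in the LIDPAD libraries, against 2.73 and 21.0 FPM in the control libraries. Gsta1 at that week had 12.2 and 5.22 FPM in the LIDPAD libraries, against 1.43 and 54.8 FPM in the control libraries, so in both genes the control values lay on both sides of LIDPAD. Col1a1 had changes of 0.08 ± 0.79, 2.0 ± 0.14 and 2.76 ± 0.21 at weeks 4, 8 and 12, and Gsta1 had -0.28 ± 1.40, 4.13 ± 0.29 and 4.13 ± 0.23. Idi1 had -3.07 ± 0.33, -2.87 ± 0.45 and -3.69 ± 0.14.

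**Figure D4:**
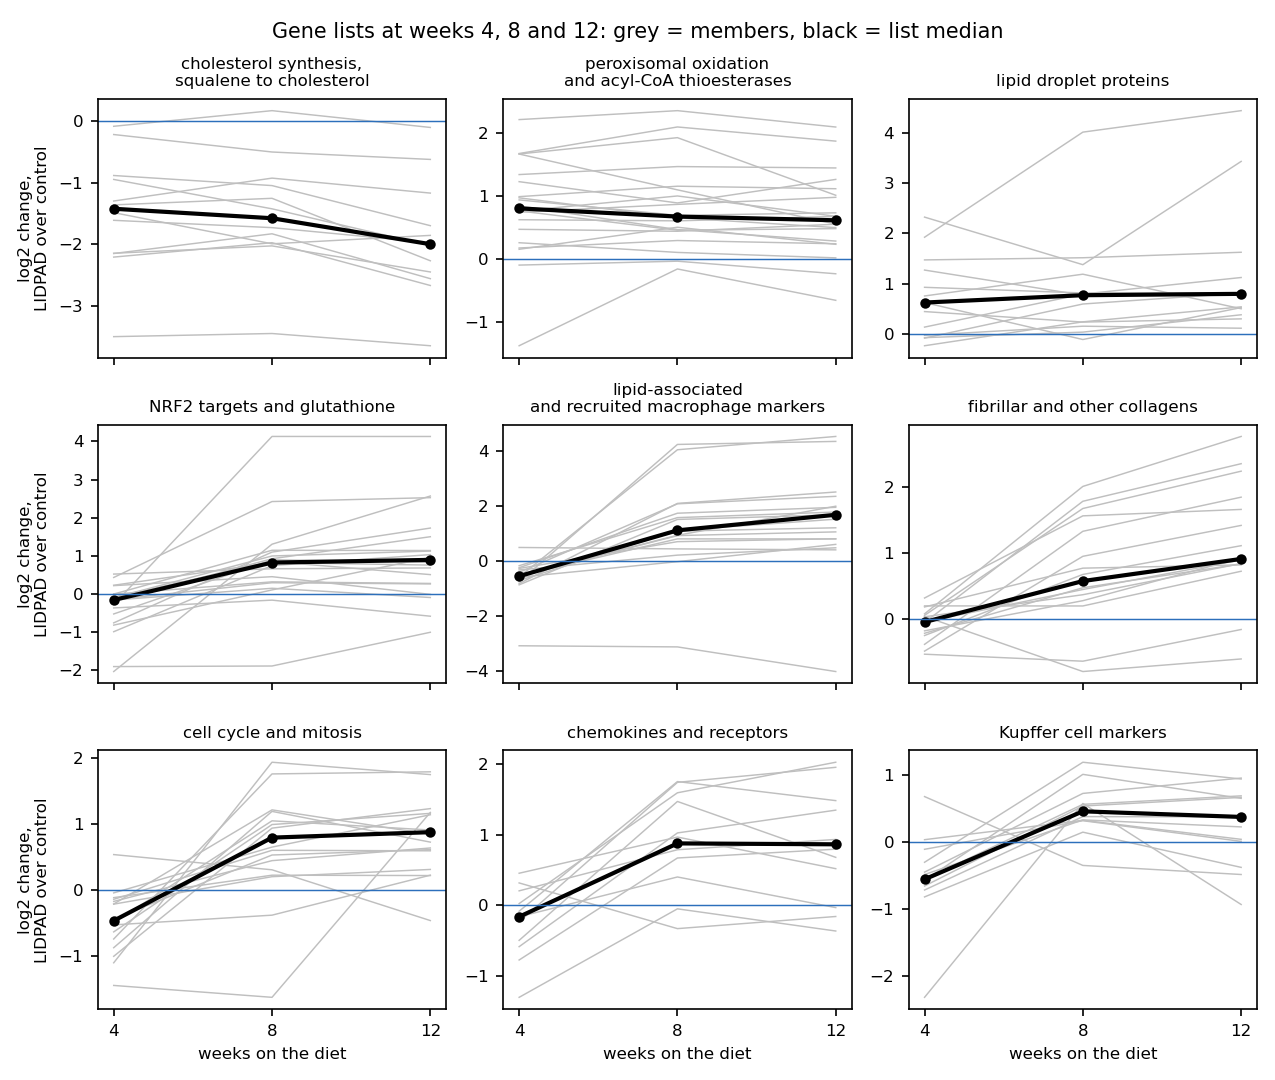
Log2 change, LIDPAD over control, after 4, 8 and 12 weeks for 9 lists of genes. Grey lines are members tested at all 3 weeks and black points the list medians, with 0 drawn in blue; recruited macrophage markers had a median of -0.54 at week 4, 1.12 at week 8 and 1.69 at week 12.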

How the data were processed

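Liver RNA was extracted with TRIzol and a column kit, per the labels' protocols. The deposited signal values are FPM made by the authors, counts divided by a size factor for each column, per 1000000. The submitters' processing notes list HISAT2, featureCounts, DESeq2 and GRCm38 and give neither role nor version. The strand setting and the treatment of shared reads are not given in the sources used here, so overlapping and antisense genes cannot be told apart. Whole reads were recovered from the step of each column, within 0.02 reads. There were 5.69 times as many values of 2 reads as of 1 read, so a fragment may have been counted once per mate. Mitochondrial ribosomal RNA took 20.8 to 21.7% of reads.

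The 4 columns of a library were averaged. Genes with at least 1 FPM in 2 libraries were fitted with limma 3.58.1 (R 4.3.3) on log2(FPM + 0.5), with a mean-variance trend, two-sided, and Benjamini-Hochberg adjustment over all genes tested. All adjusted p-values of genes are from this fit. Fits without a library kept the same genes, and a group left with 1 library is assumed to vary like the others. Weeks 4, 8 and 12 were fitted jointly for differences between weeks. edgeR 4.0.16 and DESeq2 1.42.0 on whole reads were alternatives, and fits without a library of week 4 or 12, and week 4 medians without one of week 4, were chosen after seeing the data. The fits were also run on simulated week 8 counts in which 200 genes were changed. Counts were drawn independently for each gene and library, so the dependence of calls on single libraries was not tested there. Promoter sequences are from RefSeq, the first entry listed for a symbol. Figures used Python 3.11.15 and matplotlib 3.10.9.

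The members and the 53 lists were chosen with earlier results of these data known. The naming rule took index genes, the 15 largest rises and 15 largest falls among calls without overlap, for each list the 3 genes of smallest p, and called genes moving against their list's median. Other list members are named for their known role, with their values already seen. Some genes of the lists are counted but not reported by name here.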

Additional observations from a re-analysis of the deposited data

Results flagged for a closer look

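Of the 123 called genes named by rule, 7 changed sides between weeks. Both of their LIDPAD libraries lay on one side of the control libraries at week 8 and on the other at week 4. None of the 7 was called at week 4, and the other week 8 calls were not searched. The difference between the weeks was tested gene by gene as an interaction with limma and none passed, with adjusted p-values of 0.0965 for Adgre1, 0.201 for Atf3, 0.132 for Mlxipl, 0.119 for C1qb and 0.118 for each of Ctss, Tmsb4x and Ifit3b. Adgre1, the F4/80 antigen, had a log2 change of 1.01 at week 8 and -0.57 at week 4. C1qb, a complement gene of macrophages, had 0.73 at week 8 and -0.45 at week 4. Ctss, a cathepsin of antigen-presenting cells, had 1.09 at week 8 and -0.55 at week 4. Tmsb4x, an actin-binding thymosin, had 0.86 at week 8 and -0.62 at week 4. Atf3, the stress factor, had 1.23 at week 8 and -2.14 at week 4. Ifit3b, an interferon response gene, had 0.85 at week 8 and -0.18 at week 4. Mlxipl, which encodes ChREBP, went the other way, with -0.53 at week 8 and 0.42 at week 4.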

How the results depend on the processing

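The 743 calls at week 8 became 478 with no filter, 471 with no trend, 476 in the joint fit of weeks 4, 8 and 12, and 1264 with DESeq2. They numbered 702 and 759 with pseudocounts of 0.1 and 1, 505 with a filter of 5 FPM, 1028 rescaled to 1000000 FPM, 1083 rescaled without mitochondrially encoded genes, 620 after quantile normalization and 670 with edgeR, 649 of them shared. Leaving out 1 library gave 69 to 1629 calls. The week 4 interaction gave 0 calls with limma and 209 with DESeq2, and leaving out 1 library gave 0 to 796. The week 12 interaction gave 0 under every setting run. edgeR and DESeq2 were not run for it, because whole reads were not recovered for 3 columns of week 12. Replicate numbers did not pair the samples: deviations of same-numbered libraries had a correlation of 0.0215, and a replicate block gave 509 calls, 459 of them among the 743. Saa1, with no call and a log2 change of 0.76, had 2.51 without control library 1 and turned to -0.98 without control library 2. The median of T and NK cell markers, at -0.21, turned to 3.31 with a filter of 5 FPM and 0.062 with no filter, and the bile duct median of 0.31 turned to -0.066 with no filter. Of 2869 values of named genes under alternatives, 302 lost a call and 77 gained one. Causes were not tested. With 2 libraries a group, each call borrows its error from other genes of like level, and an adjusted p near 0.05 can fall on either side.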
